A study of Mus musculus with 28 samples.

Results

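Coronal fractions 4 to 6 of the mouse brain were compared with fractions 7 to 9, which are the 6 arrays at the middle of a coronal series of 12 and all lie on one microarray slide. These 6 of the 28 samples of the series were chosen by their fraction number, 3 on each side, because the first trio was taken to hold hippocampus, thalamus and midbrain and the second hypothalamus, striatum and basal forebrain. In Transcriptome Tomography a frozen brain is cut from end to end along one axis, consecutive sections are pooled into fractions, and the RNA of each fraction is hybridised to an array. The coronal brain came from 1 male C57BL/6J mouse aged 3 weeks with no treatment or transgene named, and each fraction, a pool of 100 sections, gave 1 array of total RNA. Both trios therefore share the mouse, the age, the strain and the slide, and differ in position and in the row of arrays on that slide. The 3 fractions of a side are neighbouring positions and not replicates of one position, so every error and p-value here measures the spread between positions on a side.

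The middle of the rodent brain passes within a short distance from midbrain to thalamus, hypothalamus and the ganglia of the forebrain base. Midbrain nuclei are laid down under transcription factors of the Irx, Gata and Foxa families and hold dopamine neurons. The striatum is built largely of projection neurons that answer dopamine through the receptors Drd1 and Drd2, while cholinergic neurons of the basal forebrain depend on the LIM homeodomain factors Lhx8 and Isl1.

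Levels are given as log2 of the processed array signal minus the 75th percentile of the same array, so that a level of 0 is that percentile and a difference of 1 is a doubling. The 75th percentile lay at 495 to 574 signal units in fractions 4 to 6 and at 419 to 468 in fractions 7 to 9. Between 30041 and 30323 probes were well above background on the arrays of fractions 4 to 6 and between 27405 and 29021 on those of fractions 7 to 9. The lowest level that was well above background lay between -4.78 and -4.73 on the first side and between -4.32 and -3.92 on the other, so a dim transcript could be followed further down in fractions 4 to 6. These are called detection limits here, and levels below them have no order. Where only some arrays of a side were well above background, their number is given, and a difference printed for such a gene includes readings under the limit and is no measured size. Values listed for a gene run from fraction 4 to fraction 9.

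The 6 fractions changed step by step. Over the 25656 probes well above background on all 6 arrays, 1.84% stepped by more than 1 log2 between fractions 4 and 5, 1.07% between 5 and 6, 1.08% between 6 and 7, 1.74% between 7 and 8 and 1.92% between 8 and 9. By this count the border between fractions 6 and 7 was crossed by fewer large steps than 3 of the 4 borders inside a side. Fraction 4 stood furthest from the rest, with 118 probes more than 1 log2 above all other 5 fractions, against 14 to 78 for each of the others.

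Of 55681 probes, 28487 were well above background on all 3 arrays of at least 1 side and were tested. At an adjusted p under 0.05 in limma, 22 probes differed, which is 0.0772% of those tested. Of these, 12 (0.0421%) were higher in fractions 7 to 9 and 10 (0.0351%) in fractions 4 to 6. Without adjustment 3624 probes (12.7%) passed 0.05. The levels of the 2 sides did not overlap for 3228 probes (11.3%) that were higher in fractions 7 to 9 and for 2294 (8.05%) that were higher in fractions 4 to 6. Among the 25656 probes well above background on all 6 arrays these shares were 12.1% and 7.27%. A gene measured on 1 side alone could pass the filter only by being higher there, so the lists below are counted over members above background on all 6 arrays. Of the 12 probes called higher in fractions 7 to 9, 11 were above background on no array of fractions 4 to 6. For the 10 called higher in fractions 4 to 6, this held for 7 on the other side. Their p-values take the spread of the dim side from readings not above background. Of the 26 tested probes dim on all of fractions 4 to 6, 11 were called. The median difference over all probes tested was 0.015 log2. The count of 22 depended on single fractions: it was 5 without fraction 4, 8 without fraction 5, 86 without fraction 6, 157 without fraction 7, 67 without fraction 8 and 67 without fraction 9.

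Of the 257 probes tested from 30 gene lists of regions and cell classes, none was called, with each gene read at its brightest probe. The mean levels of the lists show how regions lie against the border of the 2 sides. The midbrain lists were highest in fractions 4 and 5, hippocampus and thalamus in fraction 6, hypothalamus in fraction 7, and striatum and basal forebrain cholinergic neurons in fraction 8. Against the regions named for the 2 sides, midbrain genes lay on the first and striatal genes on the second, while hippocampal and cholinergic genes were mixed. Among genes above background on all 6 arrays, thalamic means were lower and hypothalamic means higher in fractions 7 to 9. Some genes of both lists were high in fractions 6 and 7, on both sides of the border.

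**Figure D1:**
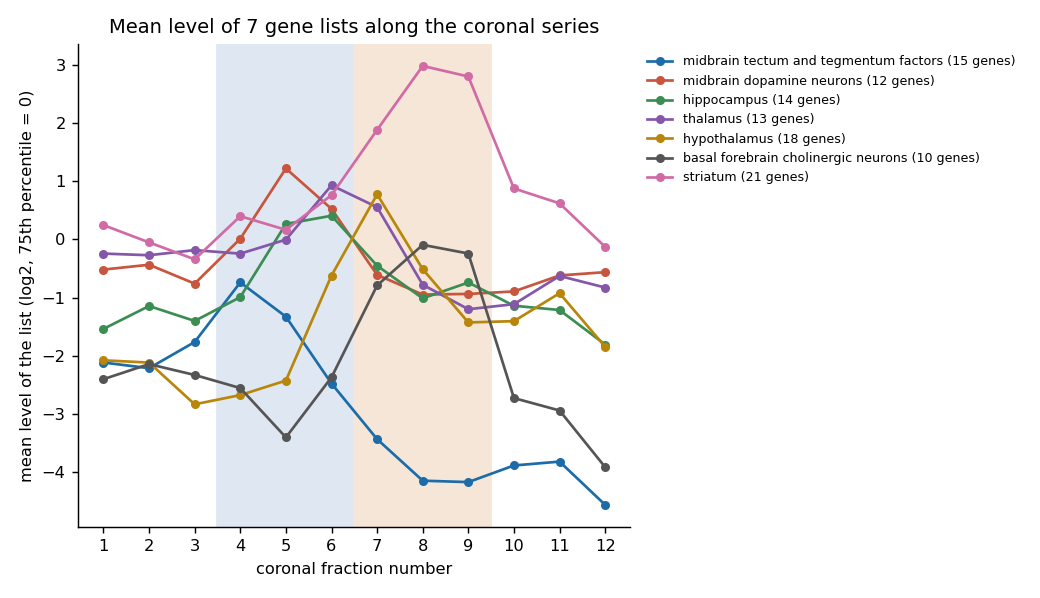
Mean level of each gene list (log2 above the 75th percentile of the array) in the 12 coronal fractions, over the list members that were well above background in at least 1 of them, with fractions 4 to 6 shaded blue and fractions 7 to 9 shaded orange. Each point is 1 array, and the striatum list reaches 2.98 in fraction 8 from 0.17 in fraction 5.

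Of the genes called higher in fractions 4 to 6, Slc18a2 and Pth2 have known uses in neurons. Slc18a2 encodes the vesicular monoamine transporter, which loads dopamine, serotonin and noradrenaline into vesicles. At the probe that was called, its levels were -1.51, -1.82, -2.54, -6.28, -5.62 and -5.94. It was well above background in all of fractions 4 to 6 and in none of fractions 7 to 9, which gives an at least 4.42-fold higher level in fractions 4 to 6 (adjusted p = 0.0099). A second and brighter Slc18a2 probe read 1.25, 1.19, 0.28, -1.09, -0.78 and -1.88, without overlap, and its difference of -2.16 log2 (SE 0.36, adjusted p = 0.16) did not pass.

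Pth2 encodes the neuropeptide TIP39, a ligand of the parathyroid hormone 2 receptor. Its levels were -0.30, 0.09, -0.21, -3.14, -3.96 and -4.63, even over fractions 4 to 6 and -2.93 log2 from fraction 6 to fraction 7. The difference between the sides was -3.77 log2 (SE 0.35, adjusted p = 0.0235), with 1 of the 3 arrays of fractions 7 to 9 well above background. Over the 12 coronal fractions Pth2 was highest at the other end of the series, at 1.78 in fraction 11 and 1.86 in fraction 12.

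The other symbols called on this side were dimmer. Cabp7, a calcium-binding protein of the calmodulin kind, read -2.55, -2.48, -3.05, -4.82, -5.24 and -5.03, at least 2.65-fold higher in fractions 4 to 6 (adjusted p = 0.0162). Popdc3, of the Popeye domain family, read -3.37, -3.06, -3.03, -4.77, -5.25 and -4.72, at least 1.93-fold higher (adjusted p = 0.0404). Ankrd22, an ankyrin repeat protein, was at least 1.25-fold higher (adjusted p = 0.0168). Svs5, known as a secretory protein of the seminal vesicle, was called as well (adjusted p = 0.0162), but its mean in fractions 4 to 6 was under the detection limit of the other side, so no fold is given. None of the 4 was well above background in any of fractions 7 to 9.

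Among probes without a symbol, 2 probes of one interval, chr2:33500594-33501874 on the forward strand (build mm9, as named in the array files), were both called. The brighter of them read -0.16, -0.29, -0.10, -1.29, -1.26 and -1.38, well above background on all 6 arrays, with a difference of -1.13 log2 (SE 0.11, adjusted p = 0.0306). The remaining 2 probes higher in fractions 4 to 6 carry only transcript record numbers.

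The symbols called higher in fractions 7 to 9 were Ccl8, Airn and Catsper1, none of them well above background in any of fractions 4 to 6. Ccl8, a chemokine that draws monocytes and other leukocytes, read -5.70, -5.05, -5.73, -2.06, -1.0 and -2.02, at least 8.36-fold higher in fractions 7 to 9 (adjusted p = 0.0165). Of the 9 microglial genes listed, 1 had levels above those of fractions 4 to 6 without overlap, near the 12.1% of all probes, and none was called (median difference 0.21 log2), and the 4 blood genes tested had a median of -0.42. Their part in the Ccl8 result was not tested.

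Airn, the non-coding RNA transcribed across the imprinted Igf2r locus, read -5.46, -5.88, -6.48, -2.40, -1.22 and -1.99, at least 7.4-fold higher (adjusted p = 0.0168). Another Airn probe had a difference of -0.61 log2 (adjusted p = 0.329), so the probes of this gene disagree in sign. Catsper1, known as a subunit of the calcium channel of sperm, read -6.87, -6.94, -6.92, -2.26, -2.89 and -1.83, at least 5.4-fold higher (adjusted p = 0.00379).

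Of the other 9 probes called on this side, 6 are named by genomic interval. The interval chr11:22510175-22522025 on the forward strand (mm9) read -6.65, -6.74, -6.72, -1.30, -1.15 and -2.18, at least 9.27-fold higher (adjusted p = 0.0034). The intervals chr6:5311375-5328075 and chr8:108098325-108110775, both on the reverse strand, were at least 9.39-fold and 9.14-fold higher (adjusted p = 0.00451 and 0.0165). The interval chr3:30032959-30079659 on the reverse strand was the 1 probe of this side that was well above background on all 6 arrays, at -2.96, -3.05, -2.92, -1.16, -1.38 and -1.43, with a difference of 1.65 log2 (SE 0.12, adjusted p = 0.0099).

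**Figure D2:**
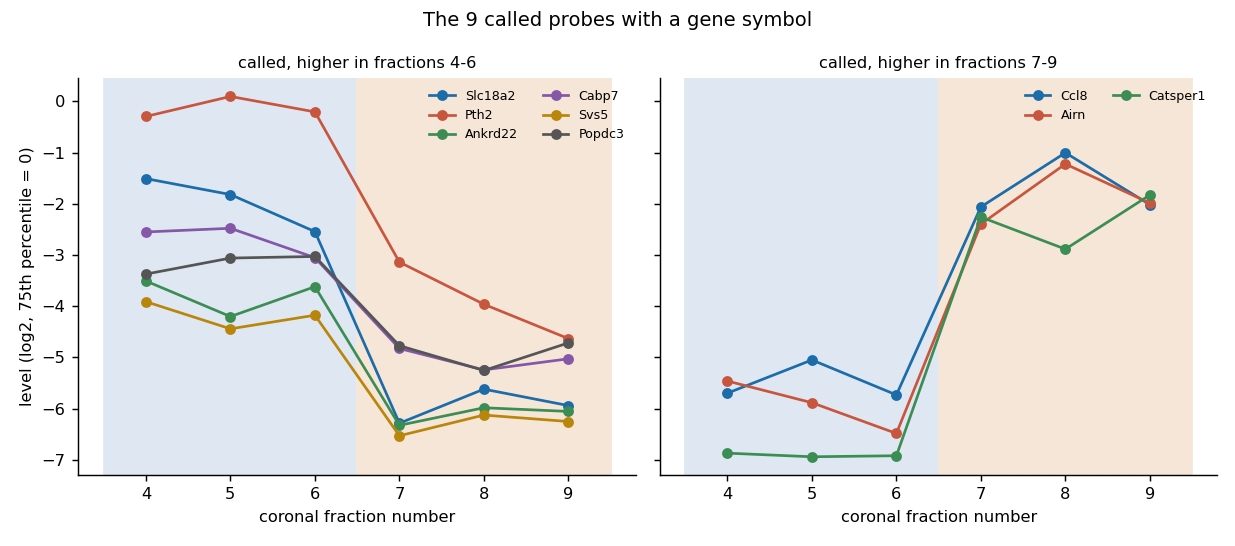
Levels (log2 above the 75th percentile of the array) of the 9 called probes that carry a gene symbol, in coronal fractions 4 to 9, with 1 array per point. The left panel holds the 6 that were higher in fractions 4 to 6 and the right panel the 3 that were higher in fractions 7 to 9, and no line has overlapping sides.

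The same probes were read on the 16 arrays of the other 2 brains, which the comparison did not use. The 10 probes higher in fractions 4 to 6 were well above background on 2 to 16 of those arrays (median 8.5). The 12 probes higher in fractions 7 to 9 were well above background on 0 to 16 of them (median 1), and 7 of the 12 on at most 2. Among all 28487 probes tested, 83 (0.291%) were seen on at most 2. Of the 26 tested probes that were not well above background on any array of fractions 4 to 6, 11 (42.3%) were seen on at most 2. Of the 637 that were not well above background on any array of fractions 7 to 9, 22 (3.45%) were seen on at most 2. Catsper1 was seen on 0 of the 16, Airn on 1, the chr11 interval on 1 and the chr6 interval on 1, while Ccl8 was seen on 9, Slc18a2 on 7, Cabp7 on 12 and Pth2 on 14.

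On the slide, fractions 4 to 6 occupied one row of arrays and fractions 7 to 9 the other, so row and position cannot be told apart in this contrast. Fraction 10 shared the row of fractions 7 to 9, and there 2 of the 12 probes were well above background. Fraction 3 shared the row of fractions 4 to 6, and there 6 of the 10 were. Fractions 3 and 10 also differ from the trios in position, so these counts cannot separate row from position.

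No striatal gene passed the adjusted threshold, while the levels of nearly all of them lay apart. Of the 21 listed, 19 were tested and 18 were above background on all 6 arrays. All 18 had a higher mean in fractions 7 to 9, and for 17 of them the sides did not overlap, where 12.1% of all such probes did this. None had an adjusted p under 0.05 and all 18 had an unadjusted p under 0.05, where 6.99% of all probes did with this sign. The median difference of the 18 was 2.00 log2, against 0.027 over all such probes. In bulk tissue, fewer cells of a type and less RNA per cell cannot be told apart.

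Among receptors, Adora2a, an adenosine receptor of the indirect pathway, read -2.09, -2.29, 0.30, 2.13, 3.32 and 3.13 (difference 4.22 log2, SE 0.70, adjusted p = 0.16). Drd1, the D1 dopamine receptor of the direct pathway, read -2.26, -2.0, -0.91, 0.41, 1.77 and 1.82 (difference 3.06, SE 0.48, adjusted p = 0.159). Both lay highest in fractions 8 and 9 and already stood higher in fraction 6 than in 4 and 5. Drd2, the D2 receptor, differed by 1.68 (SE 0.32, adjusted p = 0.195), and Gpr6, an orphan receptor of striatopallidal neurons, by 2.24 (SE 0.25), with the lowest adjusted p of the list, 0.0531.

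Downstream of the receptors the order was alike. Rgs9, which shortens G protein signals, read 1.38, 1.53, 2.39, 4.09, 5.37 and 5.36 (difference 3.17, SE 0.41, adjusted p = 0.102). Ppp1r1b, encoding the dopamine-regulated phosphoprotein DARPP-32, read 3.97, 3.77, 4.84, 6.19, 7.23 and 6.95 (difference 2.60, SE 0.36, adjusted p = 0.125). Neither gene had overlapping sides, and in both the level of fraction 7 lay between those of fractions 6 and 8.

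Penk, the enkephalin precursor, differed by 2.03 (SE 0.30, adjusted p = 0.151), and Serpina9, a protease inhibitor, by 3.05 (SE 0.52, adjusted p = 0.165). Ido1, an enzyme of tryptophan breakdown, was not well above background in fractions 4 to 6 and was at least 3.94-fold higher in fractions 7 to 9 (adjusted p = 0.143). Scn4b, a sodium channel subunit, was the 1 tested member whose sides overlapped, at 3.85, 2.65, 2.76, 3.84, 5.37 and 4.78. Drd3 and Gpr149 were above background on too few arrays to be tested. Drd2, Gpr6, Ppp1r1b, Penk and Scn4b were singled out after their values were seen, as were Ngfr, Chat, Th, Tph2, Prkcd, Tnnt1, Hcrt and Agrp below.

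The striatal list was highest in fraction 8 for 14 of its 19 tested members and in fraction 9 for the other 5. The 19 include Ido1, which passed the filter only through fractions 7 to 9. Its median step was 0.50 log2 into fraction 6, 1.26 into fraction 7, 1.08 into fraction 8 and -0.07 into fraction 9. Steps of a like size thus led into fractions 7 and 8. Without fraction 7, 14 of the 19 passed the threshold, without fraction 6, 2 did, and without any other single fraction none did. Over all probes tested, 157 of 28582 passed without fraction 7 and 86 of 29064 without fraction 6.

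**Figure D3:**
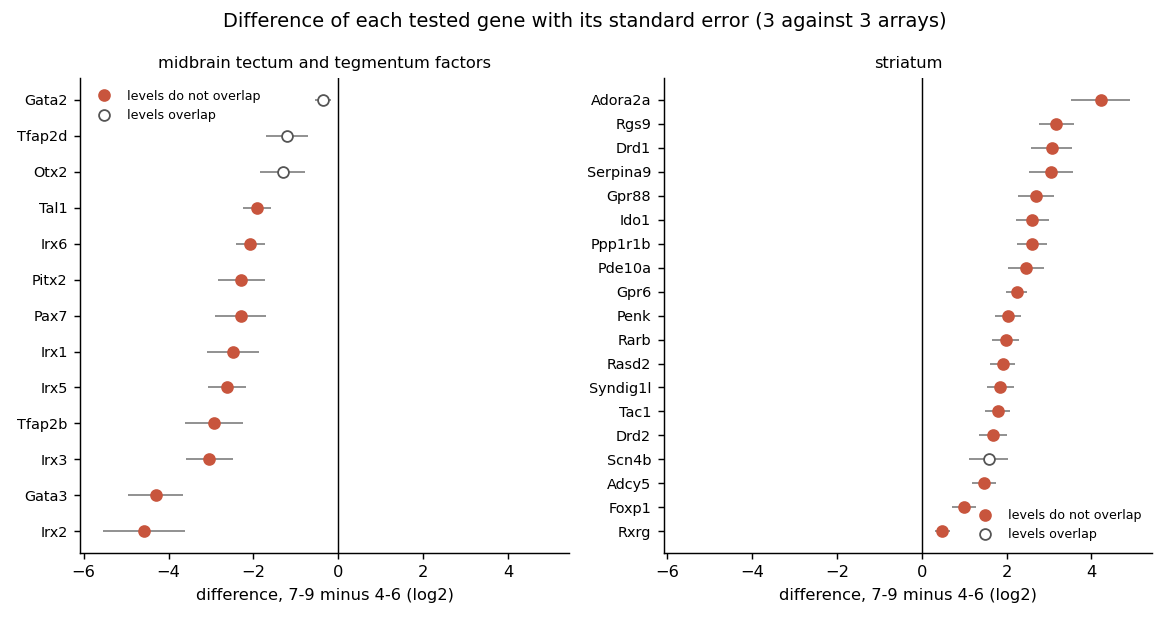
Difference between fractions 7 to 9 and 4 to 6 (log2) for each tested gene of the midbrain factor list (left) and the striatum list (right), with bars of 1 standard error from limma on 3 against 3 arrays, where genes with readings under the detection limit are drawn at their fitted value. Filled points mark genes whose 2 sides do not overlap. Among genes above background on all 6 arrays these are 3 of 5 on the left, all below 0, and 17 of 18 on the right, all above 0. Of all such probes, 7.27% were lower and 12.1% higher in fractions 7 to 9 without overlap. The other genes passed the filter through the side where they are higher.

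Among dopamine and opioid receptors the direction was mixed. Of the 8 tested, all above background on the 6 arrays, 5 had higher, non-overlapping levels in fractions 7 to 9, against 12.1% of all such probes. Besides Drd1 and Drd2 these included Oprk1, the kappa opioid receptor (1.44, SE 0.31, adjusted p = 0.227), and Oprd1, the delta opioid receptor (0.74, SE 0.13, adjusted p = 0.17).

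The basal forebrain cholinergic list holds the 2 marker genes of this contrast. Lhx8, the LIM homeodomain factor that specifies these neurons, read -6.59, -6.64, -3.13, -0.48, 1.39 and 0.74 (adjusted p = 0.159). It was well above background in 1 of the fractions 4 to 6 and in all of fractions 7 to 9. Isl1, its partner factor, read -5.29, -6.25, -2.56, -1.55, -0.99 and -1.14 (adjusted p = 0.254) and was above background on the same arrays. No size is given for either difference, since fractions 4 and 5 lie under the limit. Both genes had begun to appear in fraction 6, at a level below each of fractions 7 to 9. Without fraction 6 both passed the threshold (adjusted p = 0.0114 for each), against readings of which none is above background.

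AI606473, a non-coding transcript of unknown function that is counted in this list, read -6.74, -6.82, -5.21, -2.05, -0.14 and -0.49, with no array of fractions 4 to 6 well above background. It was at least 14.6-fold higher in fractions 7 to 9 (adjusted p = 0.0575). The RefSeq promoter table (GRCm38.p6) places its start site 261 bases from that of Lhx8 on chromosome 3, on the opposite strand, with the 2 genes running away from each other. Of the 13453 minus-strand genes in the table, 1263 (9.39%) have a plus-strand start within 500 bases in this arrangement. The 250 bases that lie before the AI606473 start, toward Lhx8, are shown because both transcripts run outward from this interval (chr3:154330571-154330820, plus strand).
Lhx8 and AI606473 interval: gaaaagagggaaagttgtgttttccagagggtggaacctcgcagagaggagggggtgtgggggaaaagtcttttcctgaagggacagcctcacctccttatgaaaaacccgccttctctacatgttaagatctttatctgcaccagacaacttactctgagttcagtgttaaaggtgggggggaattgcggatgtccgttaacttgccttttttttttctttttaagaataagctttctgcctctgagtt
No TAATTA, a core bound by homeodomain factors, and no TGACGTCA, the cAMP response element, is found in it on either strand, so nothing is in capitals. Both motifs read the same on both strands and do not overlap each other.

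Ngfr, the low-affinity neurotrophin receptor, separated the sides and read -0.76, -1.99, -1.02, -0.12, 0.65 and 0.32 (difference 1.54, SE 0.34, adjusted p = 0.236). Chat, choline acetyltransferase, which makes the transmitter itself, read 1.11, 0.43, 0.56, 0.50, 0.78 and 0.70, with overlapping sides and a difference of -0.04 (SE 0.20, adjusted p = 0.956). Of the 9 tested genes of the list, 5 were above background on all 6 arrays. Among these 3 had a higher and 2 a lower mean in fractions 7 to 9, and Ngfr was the 1 without overlap, against 12.1% of all such probes.

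**Figure D4:**
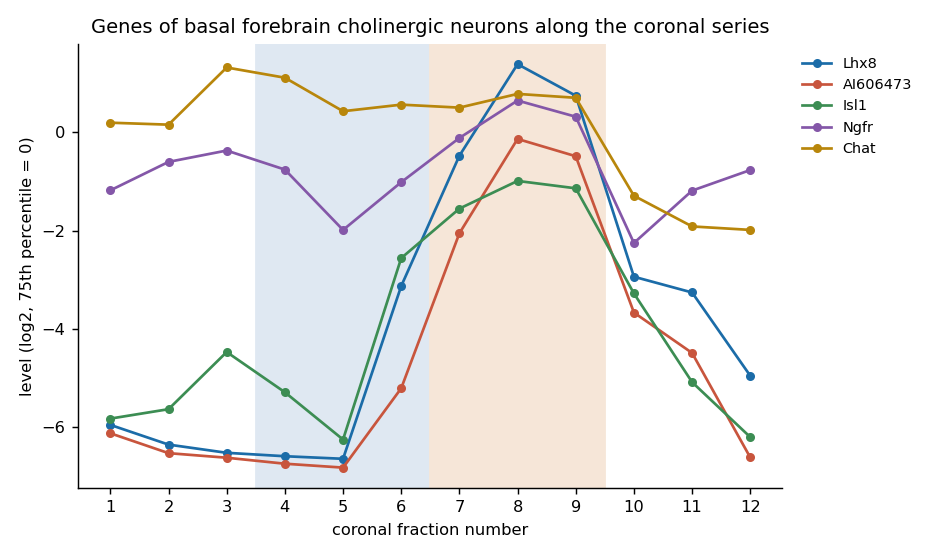
Levels (log2 above the 75th percentile of the array) of 5 members of the basal forebrain cholinergic list in the 12 coronal fractions, 1 array per point, with fractions 4 to 6 shaded blue and 7 to 9 shaded orange. Lhx8 and AI606473 reach 1.39 and -0.14 in fraction 8 and lie under the detection limit in fraction 5, while Chat stays between 0.43 and 1.11 over fractions 4 to 9.

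Factors of the embryonic subpallium, from which striatum and basal forebrain arise, were tested for 14 members, 11 of them above background on all 6 arrays. Of the 11, 9 had a higher mean in fractions 7 to 9 and 4 did so without overlap, against 12.1% of all such probes, with none called (median 0.85). With a common slope of the fraction number in the model the median of the 14 was -0.17, with 6 positive and 8 negative differences. Dlx6 differed by 2.03 (SE 0.53, adjusted p = 0.269, 2 arrays of fractions 4 to 6 above background), Dlx5 by 1.97 (SE 0.37, adjusted p = 0.187) and Six3 by 1.77 (SE 0.30, adjusted p = 0.165). Nkx2-1, a factor of both the ventral forebrain and the hypothalamus, read -6.77, -5.91, -3.22, -3.19, -2.37 and -3.45 and overlapped, with 1 array of fractions 4 to 6 above background. Over the 12 coronal fractions, 7 of the 14 were highest in fraction 12. Of 7 neuroblast and mitosis genes above background on all 6 arrays, 6 had a higher mean in fractions 7 to 9, 3 without overlap (median 0.65). With the common slope the median of that list was -0.33, and its part in the subpallial values was not tested.

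On the opposite side, 13 factors of midbrain tectum and tegmentum were tested of 16 listed, and 5 of these were above background on all 6 arrays. All 5 had a higher mean in fractions 4 to 6, 3 of them without overlap, where 7.27% of all such probes did this (median -1.91 log2). The other 8 passed through their levels in fractions 4 to 6 and had readings under the limit in fractions 7 to 9. None of the 13 passed an adjusted p of 0.05. Of the 5, 4 had an unadjusted p under 0.05, where 5.74% of all probes tested did with this sign.

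Irx2 and Irx3 are Iroquois homeodomain factors that pattern the midbrain and thalamus. Irx2 read 0.62, -0.22, -1.41, -2.67, -6.01 and -6.09 (adjusted p = 0.222) and Irx3 0.16, -0.72, -1.49, -2.76, -4.55 and -3.86 (adjusted p = 0.174). Each was well above background on 1 array of fractions 7 to 9, so that no size is given. Irx2 was lower in each fraction than in the one before until it lay under the detection limit in fractions 8 and 9. Gata3, a factor of inhibitory neurons of the brainstem, read 0.23, -0.17, -1.77, -4.29, -4.27 and -6.07 and was at least 11.5-fold higher in fractions 4 to 6 (adjusted p = 0.158). Tfap2b, an AP-2 family factor, read 0.65, -0.41, -2.36, -3.70, -3.78 and -3.42 (difference -2.93, SE 0.68, adjusted p = 0.24). Barhl2 was not above background on any of the 6 arrays.

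Of the 5 factors above background on all 6 arrays, Gata2, Tfap2b, Otx2 and Irx1 were highest in fraction 4 among the 6 fractions. Tal1 was highest in fraction 5. Over the 12 coronal fractions, Gata2 was highest in fraction 1 (0.11) and Tfap2b in fraction 2 (1.72). Of the 13 factors tested, 8 were highest in fraction 4 of the 12. Fraction 4 also carried cerebellar genes. Pcp2, a Purkinje cell gene, read 6.96, 1.97, 1.21, 0.60, -0.23 and 0.83, and Neurod1, a gene of granule cells, 0.89, -1.40, -1.80, -2.90, -2.98 and -3.05. The summed level of the 12 cerebellar genes was 215 in fraction 4, 19.1 in fraction 5 and 30.5 in fraction 6, and lay between 18.5 and 28.3 in fractions 7 to 9, on the linear scale where 1 is the 75th percentile. The part of cerebellum in the midbrain values of fraction 4 was not tested.

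Dopamine neurons of the midbrain were centred on fraction 5. Slc6a3, the dopamine transporter found in those neurons, read -2.91, 3.73, 2.43, -0.65, -2.46 and -1.37, highest in fractions 5 and 6, and the sides overlapped (difference -2.57, SE 1.59, adjusted p = 0.534). With 1 fraction left out, its difference lay between -4.57 and -1.25. Th, which makes the dopamine precursor, read 2.41, 4.07, 2.99, 2.05, 1.95 and 1.87 (adjusted p = 0.317). Foxa2, a factor these neurons need, read -3.77, -1.69, -3.09, -6.42, -6.04 and -6.13 and was at least 2.38-fold higher in fractions 4 to 6 (adjusted p = 0.143). Of 10 genes of the list above background on all 6 arrays, all had a higher mean in fractions 4 to 6 and 5 did so without overlap, against 7.27% of all such probes (median -0.97). En2, a factor of midbrain and cerebellum, read 2.29, -0.19, -1.51, -1.69, -2.18 and -1.99 without overlap. With a common slope of the fraction number in the model its difference was 0.93. En1 was not above background on any of the 6 arrays.

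The promoter of Slc18a2 is shown because it was the 1 gene of the 10 looked at with a searched motif in its window (Lhx8, Isl1, AI606473 and 7 of the 9 called symbols have one). Its RefSeq window (GRCm38.p6, chr19:59260628-59260881, plus strand) is printed from 250 bases before the start site to the end of the motif, and TGACGTCA is in capitals.
Slc18a2 promoter: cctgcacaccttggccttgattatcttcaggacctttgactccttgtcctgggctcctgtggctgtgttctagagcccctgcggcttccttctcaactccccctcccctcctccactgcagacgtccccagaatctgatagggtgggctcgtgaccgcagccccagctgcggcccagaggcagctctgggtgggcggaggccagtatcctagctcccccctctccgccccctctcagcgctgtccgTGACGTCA
TGACGTCA is found in 588 of 32851 windows of this table (1.79%) and TAATTA in 1738 (5.29%). TAATTA is in none of the 10 windows.

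Of the genes of raphe serotonin neurons, Slc6a4, Tph2 and Fev were highest in fraction 4. Slc6a4, the serotonin transporter, read 1.04, -0.99, -5.19, -3.65, -5.99 and -6.07, and Tph2, which makes serotonin, 0.01, -1.89, -5.35, -5.10, -4.36 and -6.28, and neither was above background on enough arrays to be tested. Fev, the factor that specifies them, read -2.02, -2.89, -3.61, -3.91, -3.81 and -3.92 (difference -1.04, SE 0.36, adjusted p = 0.338). In fractions 7 to 9, 1 array had Fev above background, and with a common slope of the fraction number its difference was 0.16. Htr1a and Maob, a serotonin receptor and an enzyme of monoamine breakdown that other cells use too, were highest in fractions 5 and 7 of the 6. Slc22a3 was not above background on any of the 6 arrays.

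Of the 3 habenular genes above background on all 6 arrays, 2 had a higher mean in fractions 4 to 6 and 1 in fractions 7 to 9. Over the 12 coronal fractions, 3 of the 5 habenular genes tested were highest in fraction 2. Pou4f1, a POU factor of habenular neurons, read -0.28, -0.04, -0.87, -1.60, -4.03 and -3.98 (adjusted p = 0.239), well above background on 1 array of fractions 7 to 9. Htr5b, a serotonin receptor of the habenula, differed by -1.39 (SE 0.44, adjusted p = 0.312) and Nhlh2, a helix-loop-helix factor, by -1.30 (SE 0.36, adjusted p = 0.28, 1 array of fractions 7 to 9 above background), while Tac2, the neurokinin B precursor, read 0.91, 1.5, 2.76, 2.90, 2.54 and 2.16. Of 5 tested habenular genes, 3 were above background on all 6 arrays, of which 1 was higher in fractions 4 to 6 without overlap, against 7.27% of all such probes. Chrnb3 and Chrna3 were not above background on any of the 6 arrays.

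For the thalamus, all 10 genes above background on the 6 arrays had a lower mean in fractions 7 to 9, and none did so without overlap, against 7.27% of all such probes. Prkcd, a protein kinase C of relay neurons, read 0.87, 1.35, 3.98, 3.01, 0.85 and 0.60 and Tnnt1, a troponin used as a thalamic marker, 1.85, 2.41, 4.13, 2.86, 1.16 and 1.94. Both were highest in fraction 6 and next highest in fraction 7, so their peak was divided between the sides (differences -0.59 and -0.81, adjusted p = 0.824 and 0.626). Lhx9, a LIM homeodomain factor, read 0.07, -0.76, -0.47, -0.81, -2.78 and -5.00 (difference -2.48, SE 0.94, adjusted p = 0.36), with 2 arrays of fractions 7 to 9 above background. Tcf7l2, a Wnt pathway factor of thalamic neurons, differed by -1.06 (SE 0.56, adjusted p = 0.473), and Calb2, calretinin, by -1.43 (SE 0.56, adjusted p = 0.37). With a common slope of the fraction number in the model the differences of Lhx9 and Calb2 were 1.07 and 1.03.

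Some hypothalamic genes, which the second side was taken to hold, were divided by the border as well. Hcrt, the orexin precursor of the lateral hypothalamus, read -2.01, -2.17, 4.16, 5.66, -0.58 and 0.57, and Pmch, the precursor of melanin-concentrating hormone, -4.48, -4.00, 3.97, 4.69, -0.97 and -0.60, above background on 2 arrays of fractions 4 to 6. Agrp, the hunger peptide of the arcuate nucleus, read -2.74, -3.36, 0.95, 2.11, -2.63 and -1.75. All of these were highest in fractions 6 and 7 and low in the other 4, so the sides overlapped and the differences were 1.89, 2.54 and 0.96 log2 (adjusted p = 0.742, 0.699 and 0.821). With 1 fraction left out, the difference lay between 0.0048 and 3.98 for Hcrt and between 0.72 and 5.28 for Pmch.

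The neurohypophyseal hormones lay further forward. Oxt, oxytocin, read -2.53, -2.41, -1.75, 5.47, 4.85 and 0.67 (difference 5.89, SE 1.16, adjusted p = 0.198). Avp, vasopressin, read -4.73, -5.81, -3.24, 4.27, 2.94 and -0.49 (adjusted p = 0.172), well above background on 1 array of fractions 4 to 6, so that no size is given. Oxt had no overlap, and for both genes the level in fraction 9 was far below that in fractions 7 and 8. Without fraction 9 both passed the threshold (adjusted p = 0.000597 for Oxt and 0.0231 for Avp).

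Of 11 hypothalamic genes above background on all 6 arrays all had a higher mean in fractions 7 to 9, with 2 not overlapping against 12.1% of all such probes. Among these 11, Cartpt was highest in fraction 5 of the 6 fractions, Trh and Crh in fraction 8 and the rest in fraction 7. Sim1, Otp, Six6 and Gpr50 were not above background on any of the 6 arrays.

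**Figure D5:**
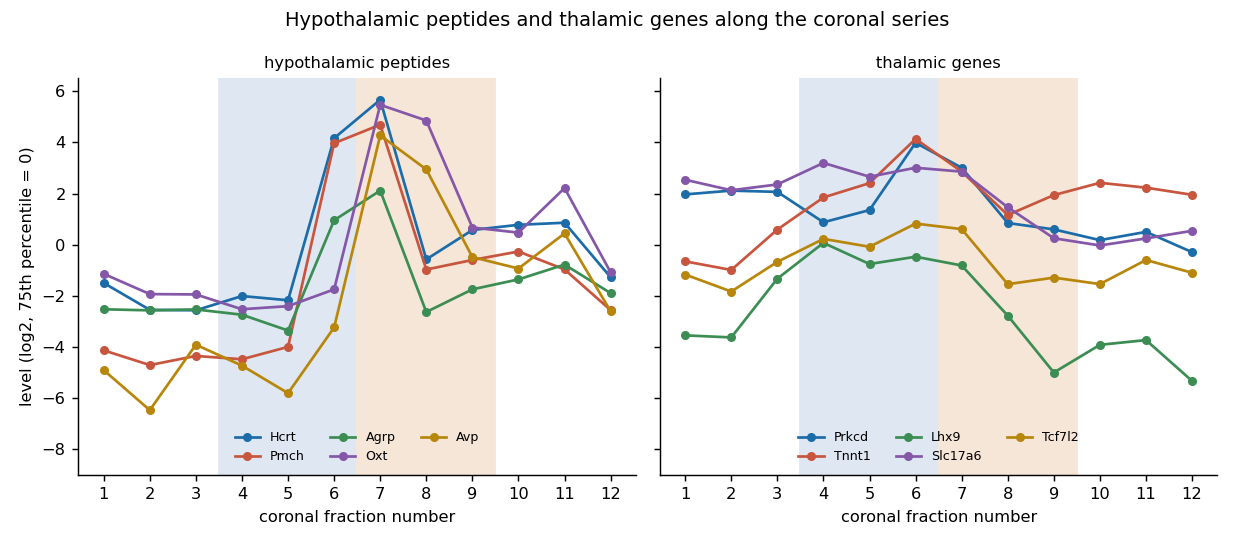
Levels (log2 above the 75th percentile of the array) of 5 hypothalamic peptide genes (left) and 5 thalamic genes (right) in the 12 coronal fractions, 1 array per point, with fractions 4 to 6 shaded blue and 7 to 9 shaded orange. Hcrt, Pmch and Agrp are high on both sides of the border between fractions 6 and 7, while Oxt and Avp are high in fractions 7 and 8.

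Of 12 tested hippocampal genes, 3 were highest in fraction 5 and 5 in fraction 6 among the 6 fractions. C1ql2, of the dentate gyrus, read -2.54, -0.55, -1.26, -1.94, -4.33 and -3.27 (difference -1.73, SE 0.69, adjusted p = 0.377, 2 arrays of fractions 7 to 9 above background), and Fibcd1, of the CA1 field, read -1.86, -0.66, -0.87, -2.60, -2.89 and -2.13 without overlap (difference -1.41, SE 0.34, adjusted p = 0.247). Prox1, the factor of dentate granule cells, differed by -1.01 (SE 0.32, adjusted p = 0.314) and Lct, lactase, by -0.88 (SE 0.88, adjusted p = 0.702). Of 11 above background on all 6 arrays, 2 were higher in fractions 4 to 6 without overlap and 1 in fractions 7 to 9, against 7.27% and 12.1% of all such probes. Iyd was not above background on any of the 6 arrays.

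Of 23 neuropeptide precursors above background on all 6 arrays, 7 were higher in fractions 7 to 9 without overlap and 2 in fractions 4 to 6, against 12.1% and 7.27% of all such probes (median 0.41). Besides Oxt and Penk, the former included Tac1, the substance P precursor, which read 3.56, 3.25, 3.54, 4.56, 5.47 and 5.71, and Npy, neuropeptide Y, at 2.66, 3.61, 4.03, 4.56, 4.41 and 4.70. Both were lower in every fraction from 4 to 6 than in any from 7 to 9. The 2 of the opposite sign were Grp and Adcyap1, the precursors of gastrin-releasing peptide and PACAP, with differences of -0.96 and -0.45 (adjusted p = 0.322 and 0.293). Tac1, Npy, Grp and Adcyap1 were singled out after their values were seen.

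Cerebral cortex genes had small differences. Of 14 genes tested, all above background on the 6 arrays, 12 had a higher mean in fractions 7 to 9, and the median was 0.33 log2. Without overlap, 2 were higher in fractions 7 to 9 and 1 in fractions 4 to 6, against 12.1% and 7.27% of all such probes. Under array median scaling 8 of the 14 were higher, and with a common slope of the fraction number 5 were, with a median of -0.31. For the septum no gene of 7 tested was free of overlap, against 19.4% of all probes in either direction (median -0.05). Over the 12 coronal fractions, 3 of the 7 septum genes were highest in fraction 2, and the rest in 1 each of fractions 5, 7, 8 and 12. The mean of the septum list was highest in fraction 2 as well, at 0.58, so this list did not mark the septum alone. With 1 fraction left out, the septum median lay between -0.08 and 0.20. Of 9 interneuron genes above background on all 6 arrays, 2 were higher in fractions 7 to 9 without overlap and none in fractions 4 to 6, against 12.1% and 7.27% of all such probes (median -0.05).

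Of 7 transmitter genes tested, 4 had a higher and 3 a lower mean in fractions 7 to 9. Slc17a6, the glutamate transporter VGLUT2 of thalamus and midbrain, read 3.20, 2.66, 3.01, 2.86, 1.46 and 0.25 (difference -1.43, SE 0.59, adjusted p = 0.387). Gad2, which makes GABA, read 3.62, 3.67, 3.73, 3.78, 4.47 and 4.26 without overlap (difference 0.50, SE 0.19, adjusted p = 0.357). Slc32a1, the vesicular GABA transporter, differed by 0.48 (SE 0.20, adjusted p = 0.391) and Slc17a8, VGLUT3, by -0.85 (SE 0.31, adjusted p = 0.352). Gad2 was the 1 of the 7 without overlap, against 12.1% of all such probes, and none was called. With a common slope of the fraction number in the model the differences of Slc17a6 and Slc17a8 were 0.67 and 0.15.

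Genes of cells other than neurons were not even across the 6 fractions. The summed level of the 12 choroid plexus genes was 286 and 348 in fractions 6 and 7, on both sides of the border, and between 60.6 and 136 in the other 4. The 12 myelin genes all had a lower mean in fractions 7 to 9 (median -0.47), and the sides overlapped for each, where 7.27% of all such probes were higher in fractions 4 to 6 without overlap. Of 12 astrocyte genes, 4 were higher in fractions 4 to 6 without overlap and 1 in fractions 7 to 9, against 7.27% and 12.1% of all such probes. The former included Slc6a11, a GABA transporter (-1.06, SE 0.19, adjusted p = 0.174), Slc6a9, a glycine transporter (-1.05, SE 0.26, adjusted p = 0.26), and Agt, angiotensinogen (-1.41, SE 0.52, adjusted p = 0.351). With a common slope of the fraction number in the model the myelin median was 0.39. The astrocyte median was then 0.11, against -0.33 without the slope, and the differences of Agt and Slc6a9 were 0.48 and 0.075. The part of cells other than neurons in the regional differences was not tested.

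The horizontal and sagittal brains gave another readout of the same genes. Of all probes tested, 213 (0.748%) were higher in fractions 4 to 6 by over 1 log2 without overlap and 260 (0.913%) in fractions 7 to 9. Of the former, 83 were well above background on all 6 arrays, and 42.2% of these had their highest horizontal level in horizontal fraction 5, where 16.9% of all 25656 probes did. In the sagittal brain, 30.1% of the 83 were highest in fraction 6 and 21.7% in fraction 4, against 6.03% and 6.29% of all. Of the 182 such probes higher in fractions 7 to 9, 19.8% were highest in sagittal fraction 3 and 18.1% in fraction 10, against 9.03% and 5.54% of all. Their highest horizontal levels were spread, with 20.9% in fraction 1, 21.4% in fraction 4 and 22.0% in fraction 6, against 18.7%, 11.7% and 24.8% of all. Both brains were other mice, 1 per plane, so these shares describe positions and carry no test.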

How the data were processed

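Total RNA of each coronal fraction was hybridised to a 1-colour (Cy3) Agilent mouse array and read with Feature Extraction 10.5.1.1, as the submitters' processing notes and the file headers give it. The authors deposited scanner files whose processed signal is a background-corrected intensity per spot, and a table of log2 values per probe, which differs from the values computed here by a near-constant offset per array. Log2 of the processed intensity was taken, spots with outlier marks were left out, the remaining spots of a probe were averaged, and every array was scaled by subtracting its own 75th percentile. Depth has no meaning for arrays, and their number, 3 per side, limits the precision.

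Probes well above background (on at least 0.5 of their spots) on all 3 arrays of at least 1 side were tested with limma 3.58.1 (lmFit and eBayes, R 4.3.3), with Benjamini-Hochberg adjustment over all 28487 and a threshold of 0.05. A probe not above background on any array of a side is given as "at least N-fold": the mean of the bright side against the mean of, per array of the dim side, the higher of the lowest level well above background and the probe's own level. Probe names were updated through RefSeq (27235 of 55681 probes carry 1 of 20660 symbols), and a gene with several probes is given by its brightest probe on average over the 6 arrays. Motif and start site positions are RefSeq's on GRCm38.p6, while interval probes keep the mm9 positions of the file headers.

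The genes named were Lhx8, Isl1 and AI606473, up to 12 called symbols per direction with the largest differences, up to 4 members of each list with the largest differences, and members not above background. The sides, lists and rules were chosen with earlier results of these data known. The alternatives were array median scaling, quantile normalization, normexp with an offset of 50 on the median signal (the mean signal was not used here), no filter, a filter on all 6 arrays, the authors' deposited log2 table, all 12 coronal arrays in 4 groups with and without the slide, an intensity trend, a common slope of the fraction number, and leaving out each fraction. The fit was tested on simulated data, and no result of that is given here.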

Additional observations from a re-analysis of the deposited data

How the results depend on the processing

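Of 22 called probes, 21 remained under array median scaling, 20 under quantile normalization and 22 with the authors' log2 table. Normexp gave 18 calls of 28487 tested, with 9 shared (6 higher in fractions 4 to 6, and 2 of 257 list genes). Without a filter 9803 probes were called of 55676 (9439 higher in fractions 7 to 9, 364 in 4 to 6), and 46 of 317 list genes. With all 6 arrays required 1 was called (1 and 0). All 12 coronal arrays gave 38 calls of 28470 tested, with 11 shared (26 and 12, 16 of 257 list genes). The slide term gave 22 of 28470 with 13 shared (17 and 5, 3 of 257 list genes). The trend gave 29 of 28487 with 17 shared (20 and 9, 4 of 257 list genes). With a common slope of the fraction number 0 probes were called in either direction, while 1508 had an unadjusted p under 0.05. Leaving out 1 fraction gave 5 to 157 calls, 4 to 115 of them higher in fractions 7 to 9 and 1 to 61 in 4 to 6. Of the 259 to 267 list genes then tested, 0 to 20 were called. The count was 5, 8, 86, 157, 67 and 67 without fractions 4 to 9 in turn, and the cause was not tested.

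Only genes that were not called changed sign. With the common slope the difference was 0.22 for Chat, -0.17 for Nkx2-1, 0.93 for En2, -0.016 for Tac2, 1.07 for Lhx9, 1.03 for Calb2, 0.67 for Slc17a6, 0.15 for Slc17a8, 1.17 for Pcp2, 0.16 for Fev, 0.48 for Agt and 0.075 for Slc6a9. Chat was 0.17 without fraction 4 and 0.04 without fraction 7, Agrp lay between -0.48 (without fraction 7) and 2.29, and Prkcd between -1.35 and 0.37 (without fraction 6), with 1 fraction left out. The common slope also turned the median of the list for subpallial factors (-0.17), cerebral cortex (-0.31), septum (0.35), raphe (0.16), cerebellum (1.15), choroid plexus (0.68), myelin (0.39), astrocytes (0.11), blood (0.32), neuroblasts (-0.33), endothelium (0.25), meninges (0.11), olfactory bulb (0.88) and hindbrain (1.47, 1 gene). Array median scaling moved the median of all differences from 0.015 to -0.12. No paired analysis was possible because the fractions of the sides share no animal-by-animal or batch pairing and their numbers only give positions along 1 brain. Signal over background limits the dim calls: 18 of 22 rest on a side with no array above background.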
